A study of Homo sapiens with 4 samples.

Results

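The transcript profile of SK-BR-3 cells carrying both a p53 shRNA and a siRNA against Pontin was compared with that of control cells. SK-BR-3 is an established human breast cancer line with HER2 amplification and mutant p53. Total RNA of each culture was hybridised to 1 Affymetrix array, and the comparison rests on 2 arrays, the combined array and the control array, out of 4 in the study. The control cells carried the control of the p53 shRNA, called control shRNA in one label and empty vector in another, and belonged to the arm titled sicon. The cells of the combined array carried the p53 shRNA and had been transfected with the siRNA against Pontin. The other two arrays held each knockdown alone. All cells were of the same line, had been grown in serum-containing medium and, per the labels' protocols, were selected with puromycin for the shRNA vector. RNA was taken 24 h after the siRNA transfection, and 200 ng was labelled. The labels name no clone, no reagent sequence and no second shRNA or siRNA, so an effect of these particular reagents and of the target transcript cannot be told apart. Of 19775 genes with a probe set of their own, 7752 had a mean signal over the 4 arrays of 110 or more, and these genes were compared. Each was read on its brightest probe set, and a difference is the log2 MAS5 signal of the combined array minus that of the control array. MAS5 signal is a linear intensity that the authors scaled per array. Genes close to the minimum were HPS6 at a mean signal of 110.03 (a difference of -0.08) and EPHA1 at 110.08 (0.01) inside it, and ZNF316 at 109.99 (0.10) and SLC52A3 at 109.96 (-0.76) outside it. The minimum was set on the mean, so a gene can pass it through the arrays where it is high. CST3, EGLN3, STX17-DT, POTEKP, FGFR1 and UACA, among others, passed with control signals below 110, and RUVBL1 and TOX3 with combined signals below it.

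Pontin is the AAA+ ATPase encoded by RUVBL1, and forms rings with its partner Reptin, encoded by RUVBL2. The pair belongs to the INO80, SRCAP and TIP60 chromatin complexes and to the R2TP cochaperone, which helps assemble snoRNPs, RNA polymerases and PIKK kinases. Wild-type p53 is a transcription factor of the stress response, and many missense mutants lose that activity and gain others through partner proteins. HER2-positive luminal breast cells express simple epithelial keratins, luminal transcription factors such as GATA3 and, in apocrine forms, secreted proteins such as PIP.

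With 1 array a side there was no replicate, so no test was possible and no difference carries an error. Sizes were therefore given on 2 scales, as deposited and after quantile normalization of all probe sets over the 4 arrays, and a gene was counted where it passed a size in the same direction on both. The combined array stood apart from the other arrays at low signal. Its median signal over all 54675 probe sets was 19.6, against 15.9 on the control array and up to 16.5 on the others, while the mean without the lowest and highest 2% was 150.02 on each. Its 18 hybridization control probe sets were all above those of the control array, with a geometric mean ratio of 1.42, against 1.04 and 1.14 on the single knockdown arrays. Genes with a mean signal under 15 had a median difference of 0.34 as deposited and -0.09 after quantile normalization. Above the minimum the scales lay closer, with a median over the 7752 genes of -0.02 as deposited and -0.01 after quantile normalization and an SD across genes of 0.31. The part of the array's scale in single differences was not tested. The 10 markers of a luminal HER2 breast cell were all above the minimum, with summed signals from 41290.9 on the control array to 46916.9 on the combined array. Of the 5 basal, 8 fibroblast, 7 immune and 5 endothelial markers on the array, COL1A1 alone passed the minimum, and the markers of each class summed to low signals. From control to combined, the endothelial sum went from 107.2 to 164.4 (155.8 with the p53 shRNA alone and 104.0 with the Pontin siRNA alone) and the basal sum from 128.1 to 160.1 (155.2 and 126.9). The fibroblast sum was 211.2 and 216.3, and the immune sum 56.2 and 64.3. Their part in the differences was not tested. In a bulk culture, fewer cells with a transcript and less of it per cell cannot be told apart.

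Signals below are given in the order control, p53 shRNA, Pontin siRNA and combined. The siRNA target RUVBL1, read on its only named probe set, measured 477.7, 398.2, 127.4 and 65.8. The lowest signal was thus on the combined array, 7.26-fold below the control, a log2 difference of -2.86 as deposited and -2.89 after quantile normalization. RUVBL2, which encodes Reptin, measured 2428.2, 2574.7, 2770.6 and 2723.3, a difference of 0.17. This lay just above the upper quartile over all genes compared, 0.15, and was smaller than their SD of 0.31. Another RUVBL2 set, with a mean signal of 1470.11, gave 0.22. The RUVBL1 probe set has the suffix _s_at, which Affymetrix gives to sets whose probes match several transcripts, often of the same gene.

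At least 2-fold lower on both scales were 46 genes, 0.593% of the genes compared, and at least 2-fold higher were 36 genes, 0.464%. As deposited alone, 50 genes (0.645%) were lower. At the 1.5-fold size, a log2 difference of 0.58, the counts on both scales were 261 genes lower (3.37%) and 159 higher (2.05%). The split at that size depended on the centring: it was 284 lower (3.66%) and 168 higher (2.17%) as deposited, but 224 lower and 221 higher once each array was centred on its median over these genes. The higher and lower genes differed in the kind of probe set that measured them. The suffix _x_at marks probe sets in which some probes share sequence with other transcripts. Such sets measured 25 of the 36 higher genes (69.4%) and 1 of the 46 lower genes (2.17%), against 6.32% of all genes compared. Among genes measured by other types, 45 (0.62%) were lower and 11 (0.151%) higher, whereas among the 490 genes on _x_at sets 1 (0.204%) was lower and 25 (5.1%) were higher. At the 1.5-fold size the other types gave 252 lower (3.47%) and 119 higher (1.64%) genes, and the _x_at sets 9 (1.84%) and 40 (8.16%).

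**Figure D1:**
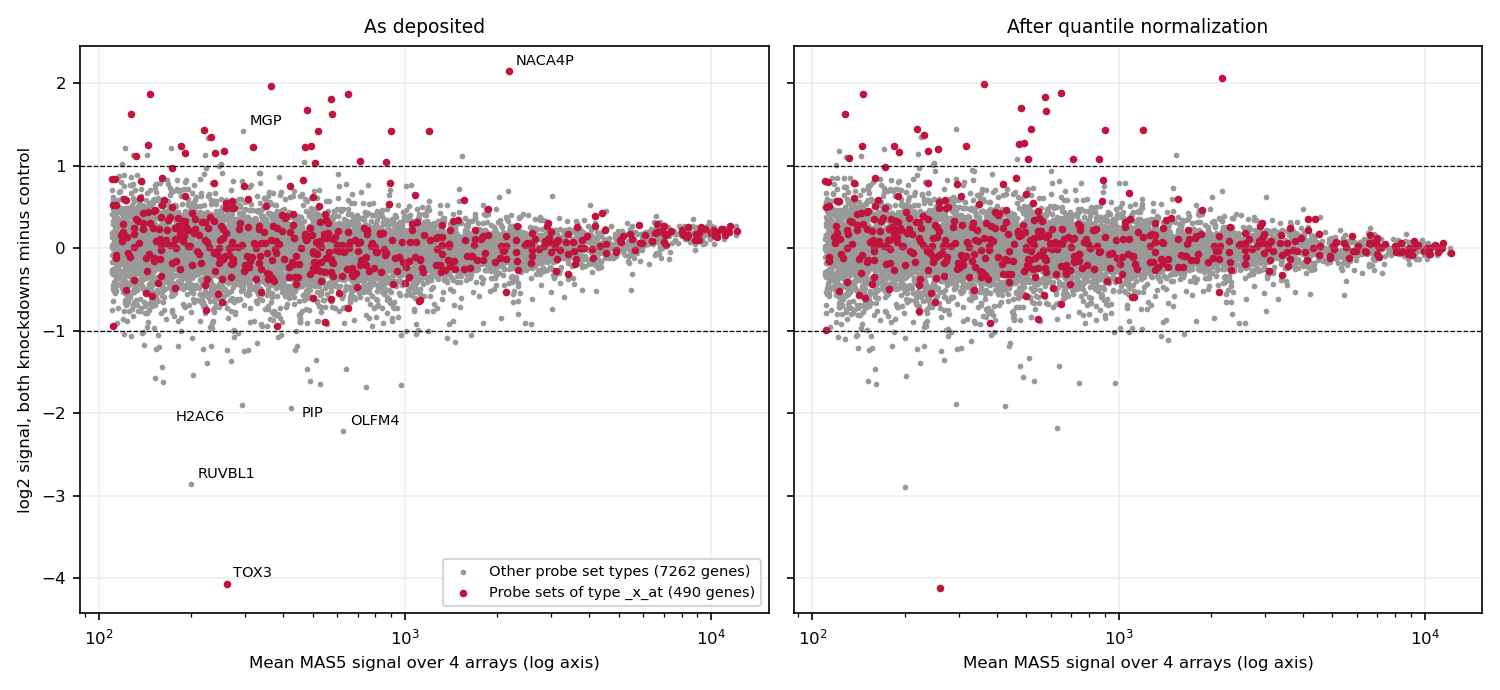
Difference between the combined and the control array for each of 7752 genes (log2 signal, vertical axis) against its mean MAS5 signal over 4 arrays (log axis), as deposited on the left and after quantile normalization on the right. Red points are genes read on _x_at probe sets and dashed lines mark 2-fold; red points make up 25 of the 36 genes at least 2-fold higher on both scales, while RUVBL1, OLFM4, PIP and H2AC6 lie among the grey points far below 0.

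The lowest gene of the comparison was TOX3, which encodes an HMG-box nuclear protein of luminal breast cells. Its signals were 1025.5, 86.3, 864.4 and 61.2, so that both arrays with the p53 shRNA were low and both without it high. The combined array was 16.8-fold below the control (-4.07, and -4.11 after quantile normalization). TOX3 was the single lower gene read on an _x_at probe set, and its other 2 sets above a signal of 50 gave -4.27 and -5.04. OLFM4 and PIP, which encode secreted proteins, were likewise low on both p53 shRNA arrays. OLFM4, the gene of the glycoprotein olfactomedin 4, measured 1316.8, 364.9, 1144.3 and 283.5, 4.64-fold lower (-2.22). PIP, the gene of prolactin-induced protein, an apocrine marker, measured 854.0, 195.8, 875.0 and 222.2, 3.84-fold lower (-1.94). For PIP the combined array lay slightly above the p53 shRNA array. CYP4Z1, a cytochrome P450 gene of mammary tissue, measured 1331.9, 601.2, 928.2 and 414.7 (-1.68), with an intermediate signal under each knockdown alone. NLGN4X, a neuroligin gene, measured 267.4, 114.6, 255.8 and 87.1 (-1.62). Further genes at least 2-fold lower that were low on both p53 shRNA arrays included CEACAM6, a cell adhesion glycoprotein gene, at 306.9, 179.3, 315.8 and 131.9 (-1.22). DDIT4L, which encodes an inhibitor of mTORC1 signalling, was at 265.5, 141.5, 343.9 and 125.1 (-1.09). S100A7, which encodes psoriasin, was at 378.4, 267.4, 346.2 and 186.4 (-1.02). DIO2, the gene of a thyroid hormone deiodinase, was at 775.2, 480.4, 602.7 and 302.0 (-1.36), and its other sets gave -1.39 and -1.26 and, on 2 _x_at sets, -0.32 and -0.71.

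A second set of lower genes was low on both arrays with the siRNA against Pontin. H2AC6, a replication-dependent histone H2A gene, measured 541.5, 453.0, 208.6 and 145.3, 3.73-fold lower on the combined array (-1.90). UBA6, which encodes an activating enzyme for ubiquitin and FAT10, measured 883.3, 874.1, 357.8 and 282.9 (-1.64). Its 3 further sets above a signal of 50 gave -1.65, -1.27 and -1.68. TMED3, which encodes a p24 cargo receptor of the early secretory pathway, measured 1583.8, 1439.0, 779.2 and 500.2 (-1.66), but its second set above a signal of 50 gave -0.23 and the mean over its probe sets 0.27. The TMED3 sets above 0 had mean signals of only 26.6 and 4.41. YEATS4, which encodes a YEATS-domain subunit of the SRCAP and TIP60 complexes, measured 327.2, 340.3, 183.5 and 124.9 (-1.39). LYRM7, an assembly factor gene of respiratory complex III, was at 393.8, 376.0, 192.8 and 166.8 (-1.24), with its other sets, both _x_at, at -1.25 and -1.02. SPTLC1, a subunit gene of serine palmitoyltransferase, the first enzyme of sphingolipid synthesis, was at 2011.7, 2031.6, 1190.0 and 911.8 (-1.14), with its other set at -0.87. In each of these 6 genes the p53 shRNA array was nearer to the control than the Pontin siRNA array was. The remaining genes among the 15 lowest also lay between the control and the combined array on both single knockdown arrays, as H2AC6, UBA6 and TMED3 did. Each was lower with the Pontin siRNA alone than with the p53 shRNA alone. PITHD1 was at -1.60, AIFM2, which encodes a coenzyme Q reductase that limits ferroptosis, at -1.58, the centromere protein gene CENPM at -1.54, PIGU, a GPI transamidase subunit gene, at -1.47, LYRM1 at -1.47 and the fractalkine receptor gene CX3CR1 at -1.44. With the mean over a gene's probe sets CX3CR1 turned to 0.19, where its other set had a mean signal of only 7.27. The second AIFM2 set gave 0.03, so this value belongs to 1 of 2 sets. Over the 45 lower genes not read on _x_at sets, 17 had another set above a signal of 50. On it 14 were also below 0 and 8 passed 1.5-fold, with a median of -0.50.

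**Figure D2:**
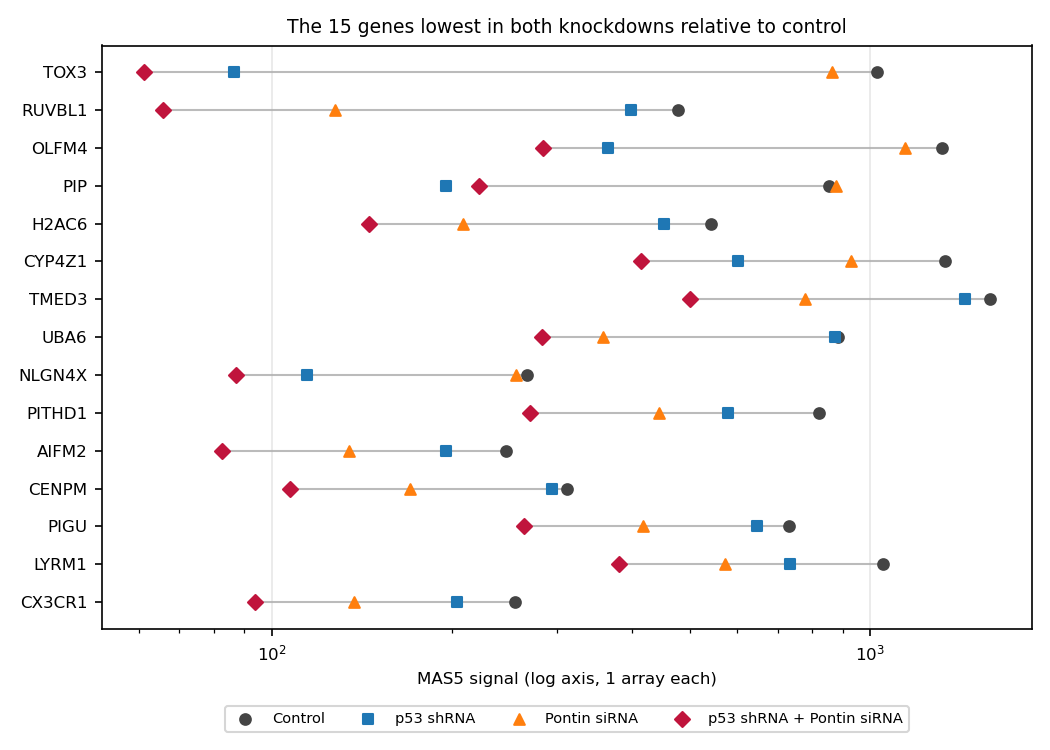
MAS5 signal (log axis) on the 4 arrays, 1 point per array, for the 15 genes with the lowest difference on both scales. The combined array is the lowest point in every gene but PIP, where the p53 shRNA array reads 195.8 and the combined array 222.2; TOX3, OLFM4, PIP and NLGN4X are low with the p53 shRNA, and RUVBL1, H2AC6 and UBA6 with the Pontin siRNA.

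The upstream sequences of 4 of these genes are shown because they stand for both patterns of arrays. Each is the 250 bases before the RefSeq start of the gene (GRCh38.p14), 5′ to 3′ on the gene's strand, in lower case with 3 core promoter motifs in capitals. OLFM4 (chr13:53028563-53028812, plus strand) and PIP (chr7:143131827-143132076, plus strand) were low with the p53 shRNA. H2AC6 (chr6:26123922-26124171, plus strand) and UBA6 (chr4:67701156-67701405, minus strand) were low with the Pontin siRNA. The motifs are the CCAAT box, the letters TATAA of a TATA box and the GC box GGGCGG, searched on both strands with overlapping matches counted.
OLFM4: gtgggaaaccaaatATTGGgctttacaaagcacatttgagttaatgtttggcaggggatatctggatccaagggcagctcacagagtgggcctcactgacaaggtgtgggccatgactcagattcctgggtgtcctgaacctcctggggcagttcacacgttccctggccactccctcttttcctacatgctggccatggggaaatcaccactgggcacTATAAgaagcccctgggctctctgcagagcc
PIP: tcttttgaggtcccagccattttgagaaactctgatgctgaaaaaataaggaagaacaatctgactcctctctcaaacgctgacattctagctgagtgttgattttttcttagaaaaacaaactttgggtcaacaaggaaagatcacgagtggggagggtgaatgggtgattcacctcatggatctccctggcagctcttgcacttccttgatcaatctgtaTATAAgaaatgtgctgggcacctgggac
H2AC6: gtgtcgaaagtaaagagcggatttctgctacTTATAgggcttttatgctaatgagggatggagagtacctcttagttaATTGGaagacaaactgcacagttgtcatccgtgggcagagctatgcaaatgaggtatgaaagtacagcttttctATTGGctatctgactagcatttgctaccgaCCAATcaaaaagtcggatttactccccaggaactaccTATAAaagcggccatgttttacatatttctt
UBA6: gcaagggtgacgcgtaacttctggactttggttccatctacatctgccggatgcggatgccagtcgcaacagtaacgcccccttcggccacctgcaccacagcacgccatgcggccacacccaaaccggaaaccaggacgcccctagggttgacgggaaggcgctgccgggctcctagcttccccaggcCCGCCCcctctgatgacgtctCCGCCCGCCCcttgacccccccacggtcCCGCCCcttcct
The H2AC6 window holds 3 CCAAT and 2 TATAA matches, OLFM4 holds 1 of each and PIP 1 TATAA match. UBA6 holds 4 GGGCGG matches, of which 2 overlap, and neither of the other motifs. Of the 46 lower genes, 28 had exactly 1 window in the RefSeq table, and of these 11 held CCAAT (39.3%), 8 TATAA (28.6%) and 15 GGGCGG (53.6%). Over 4644 of all genes compared the shares were 37.9%, 9.22% and 72.9%. A match is a description of letters and no evidence of a bound factor.

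Each difference was divided into a p53 step and a Pontin step. The p53 step is the mean of the p53 shRNA array minus control and of the combined array minus Pontin siRNA, the Pontin step is the mean of the other two differences, and the steps add up to the combined difference. Both steps use the combined and the control array, so they describe the same 4 signals and are no second measurement. Of the 46 lower genes, 34, the siRNA target RUVBL1 among them, had the larger step with Pontin and 12 with p53. The share over all genes compared was not computed, so this split has no reference to be judged against. The genes were also picked on the sum of these same steps. TOX3 had a p53 step of -3.70 and a Pontin step of -0.37, OLFM4 -1.93 and -0.28, and PIP -2.05 and 0.11. The order was turned for RUVBL1, at -0.61 and -2.25, for H2AC6, at -0.39 and -1.51, and for UBA6, at -0.18 and -1.47. CYP4Z1, at -1.15 and -0.53, and DIO2, at -0.84 and -0.52, drew on both steps. Of all 36 higher genes, 26 had the larger step with p53 and 10 with Pontin. For a gene high on the combined array alone, both steps carry that array's excess. NACA4P, read on an _x_at set, had steps of 1.26 and 0.89. Against the control, its single knockdown arrays differed by only 0.15 (p53 shRNA) and -0.22 (Pontin siRNA). The counts over all 36 therefore cannot show which knockdown such genes follow. Of the 11 higher genes not read on _x_at sets, 7 had the larger step with p53 and 4 with Pontin. On the deposited scale alone, 23 genes were at least 1.5-fold lower on the combined array than on each of the other arrays. Of these, 0 were on _x_at sets, which measured 6.32% of all genes compared. The same count was 4 for the control array, 13 for the p53 shRNA array and 4 for the Pontin siRNA array. At the 2-fold size it was 0 for the combined array. In the other direction, 32 genes were at least 1.5-fold higher on the combined array than on each other array, 7 of them not on _x_at sets.

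**Figure D3:**
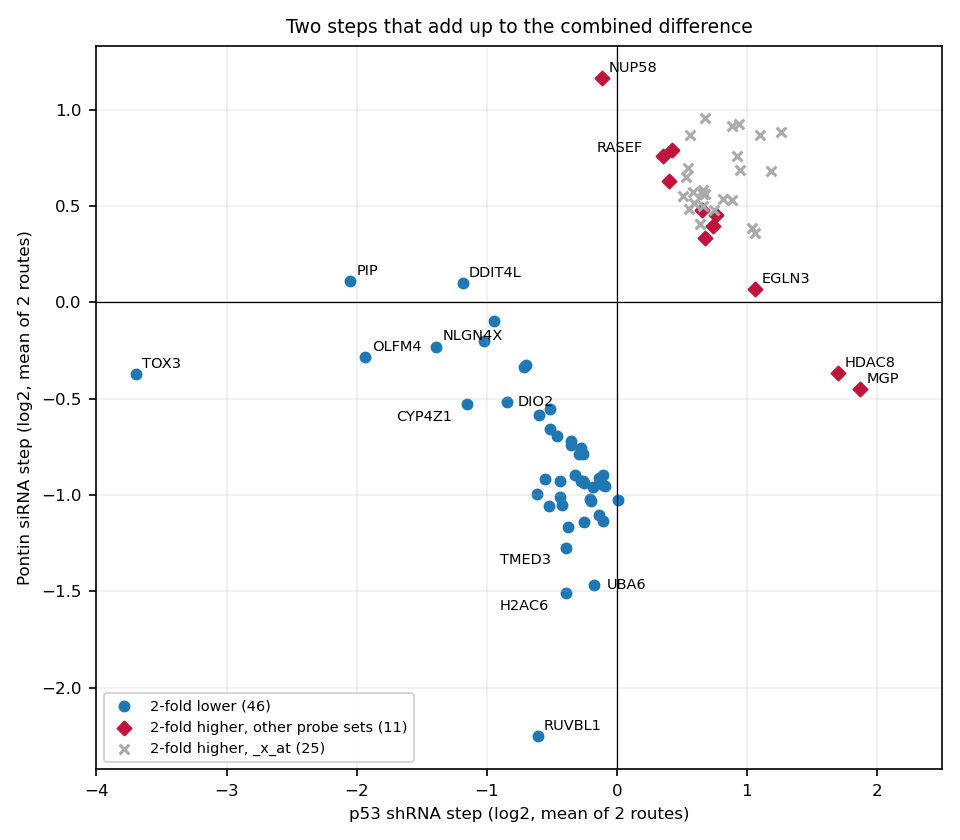
Pontin siRNA step against p53 shRNA step (log2, each the mean of 2 routes) for the genes at least 2-fold apart on both scales: 46 lower (circles), 11 higher on other probe sets (diamonds) and 25 higher on _x_at sets (crosses). The lower genes spread along both axes, from TOX3 on the p53 side to RUVBL1 on the Pontin side, while MGP and HDAC8 are the points farthest to the right and NUP58 the highest.

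Among the 11 higher genes on other probe sets, the matrix and calcification inhibitor gene MGP had the highest difference. Its signals were 172.5, 691.2, 138.1 and 462.5, 2.68-fold above the control on the combined array (1.42) and lower there than with the p53 shRNA alone. HDAC8, a class I histone deacetylase gene, had the same order, at 142.6, 466.0, 111.1 and 359.3 (1.33). Its other sets gave 1.13 and -0.08 and so disagreed. EGLN3, which encodes a prolyl hydroxylase induced by hypoxia, measured 87.1, 182.1, 91.3 and 190.6 (1.13), high on both p53 shRNA arrays, and its second set gave 0.47. NUP58, a nucleoporin gene, measured 356.4, 273.8, 662.3 and 738.2 (1.05), high on both Pontin siRNA arrays, but its other sets gave -0.37 and 0.16. CGREF1, at 102.7, 164.9, 212.5 and 238.6 (1.22), TCIRG1, a subunit gene of the vacuolar proton pump, at 100.8, 147.2, 130.4 and 220.8 (1.13), and the noncoding STX17-DT, at 81.1, 133.3, 107.8 and 188.2 (1.21), were intermediate with each single knockdown. EFHD2, which encodes a calcium-binding protein, was at 195.0, 252.5, 198.8 and 394.9 (1.02), with its second set at 0.72. PDCL stood at 1.14, with its second set at 0.16, and the pseudogene POTEKP at 1.03. RASEF, a Rab GTPase gene with EF hands, measured 1324.1, 1053.7, 1392.6 and 2864.7 (1.11). It was high on the combined array alone, and its other sets gave 1.27 on an _x_at set but -0.20 and -0.61. Just short of 2-fold as deposited were BASP1 at 0.99 and CDCP1, a transmembrane glycoprotein gene, at 0.97.

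Many of the 25 higher genes on _x_at sets had another course. NACA4P, a pseudogene and the highest gene of the comparison, measured 1523.2, 1695.8, 1308.5 and 6741.9 (2.15, and 2.06 after quantile normalization). PGF, which encodes placental growth factor, measured 444.6, 591.3, 415.8 and 1624.6 (1.87), and the zinc finger gene ZNF160 389.8, 447.4, 456.7 and 1362.8 (1.81). In all 3 genes the single knockdown arrays stayed within 1.5-fold of the control and the combined array stood alone. Others of the 25 were intermediate with each single knockdown, such as DHFR2 at 88.7, 137.5, 130.1 and 191.9. RABGEF1P1, at 99.3, 140.4, 132.7 and 236.2, was so too. On the deposited scale alone, genes at least 2-fold higher on the combined array than on each of the other arrays numbered 17. Of these, 16 were read on _x_at sets and the other was RASEF. No such gene was found for the control or Pontin siRNA array, and 1 for the p53 shRNA array. Other probe sets of the same genes seldom gave the same value. Of the 25 genes, 14 had another set above a signal of 50, 8 of these had the same sign, 1 was at least 1.5-fold higher, and the median was 0.08. NLN, a neurolysin gene, was at 1.68 on its _x_at set and at -0.07 on another. ZNF721 was at 1.42 and -1.11, CDK13, a cyclin-dependent kinase gene of transcription elongation, at 1.42 and, on other sets, at 0.10, 0.11 and -0.07, and the receptor tyrosine kinase gene FGFR1 at 1.63 and, on other sets, between 0.17 and 0.24. Of the other genes among the 15 highest, CCDC152 was at 1.97, UACA at 1.87, NUMBL at 1.63, ORAI2 at 1.43, SLC35E1 at 1.43 and ZNF611 at 1.35, all on _x_at sets. SLC35E1 read -0.038 without such sets. Over all probe sets with a mean signal of 110 or more, named or not, 71 of 1409 _x_at sets (5.04%) and 26 of 12268 others (0.212%) were at least 2-fold higher as deposited. The part of shared probe sequence, of the array's scale or of the knockdowns in this was not tested.

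**Figure D4:**
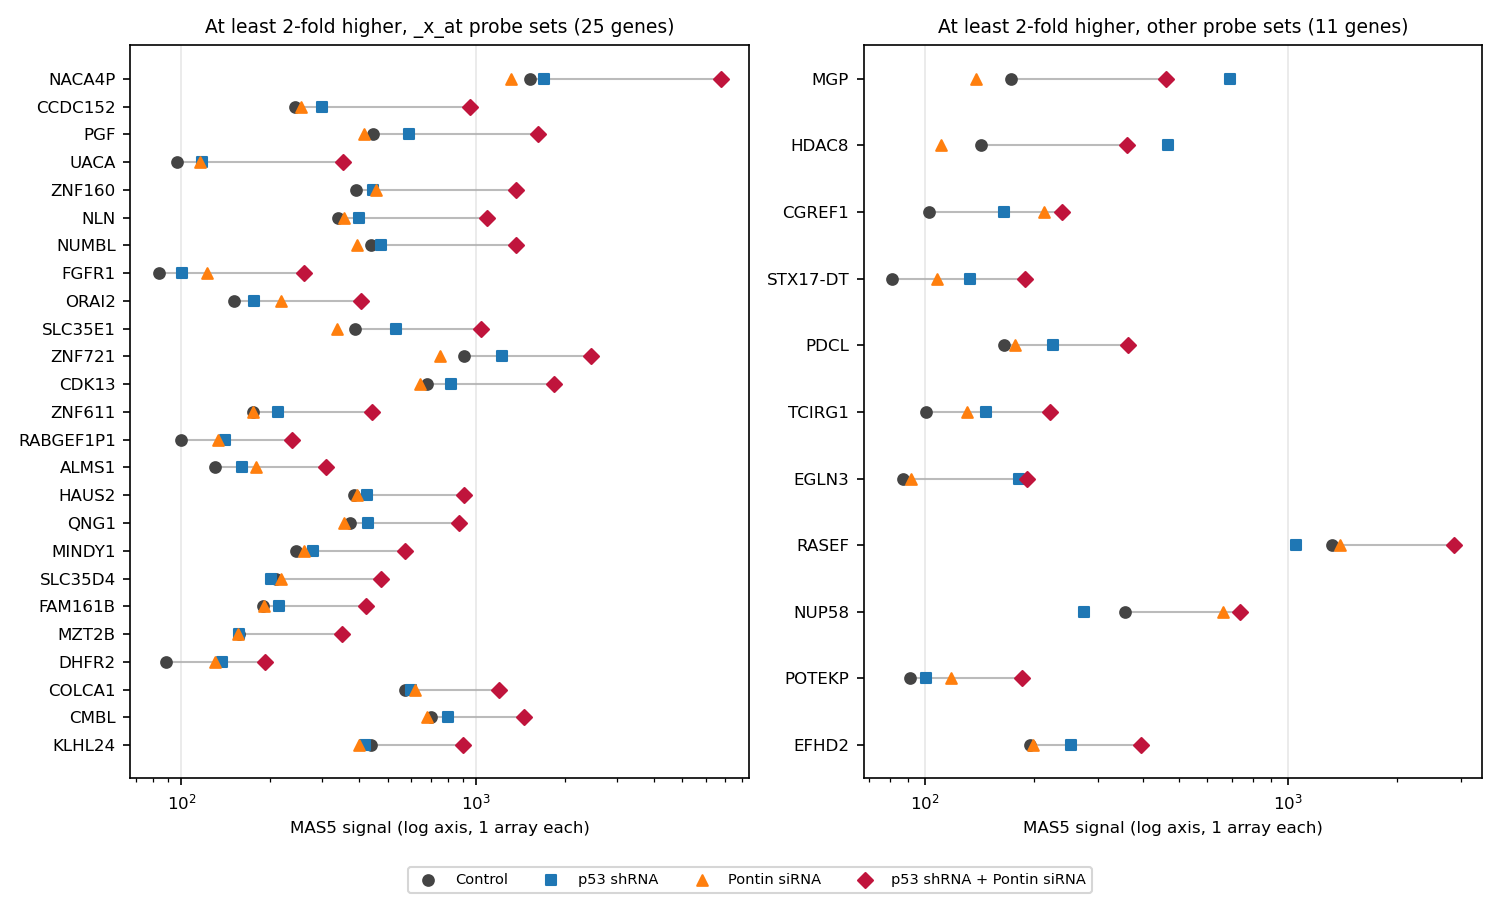
MAS5 signal (log axis) on the 4 arrays for the 25 higher genes on _x_at probe sets (left) and the 11 on other probe sets (right), 1 point per array. On the left the combined array stands to the right of the other 3 points, as in NACA4P (6741.9 against 1308.5 to 1695.8), while on the right MGP, HDAC8 and EGLN3 are high on both p53 shRNA arrays and NUP58 on both Pontin siRNA arrays.

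Genes of breast cell identity were described by role. Counts for all gene lists are of members at least 1.5-fold apart on both scales, beside 2.05% higher and 3.37% lower over all genes compared, and medians stand beside -0.02 over all genes. Lists and members were chosen with earlier results of these data known, so these counts and medians describe the lists and are no independent support. The apocrine and secretory list had a median of -0.50 (-0.47 after quantile normalization) over 9 members, with 3 lower and 0 higher. Beside OLFM4 and PIP the third was AZGP1, the gene of zinc-alpha-2-glycoprotein, at 467.1, 255.5, 608.4 and 255.5 (-0.87). AGR2, which encodes a disulfide isomerase of secretory cells, was at -0.54 and the mammaglobin gene SCGB2A2 at -0.50, below the 1.5-fold size. CLU was at 0.12 and the immunoglobulin receptor gene PIGR at 0.48. The luminal and HER2 list had 26 members, 3 lower and 0 higher, all 3 of them transcription factor genes. They were TOX3, GATA3, a luminal lineage factor, at 650.5, 334.8, 556.2 and 350.4 (-0.89), and TFAP2B, an AP-2 factor gene, at 187.0, 135.3, 161.5 and 111.2 (-0.75). Other luminal factors were nearer 0, with FOXA1 at -0.07, SPDEF at -0.18, XBP1 at -0.19 and TFAP2A at 0.31. The 5 genes of the HER2 amplicon had a median of 0.17 as deposited and 0.08 after quantile normalization. ERBB2 itself measured 4966.5, 4823.2, 5008.5 and 5581.0 (0.17). The 6 luminal keratin and surface genes had medians of 0.18 and 0.03, with KRT19 at 0.27 and 0.06 on these scales. Among 24 epithelial junction and state genes, the splicing factor gene ESRP1 was lower, at 436.4, 436.5, 248.1 and 186.0 (-1.23), but its other set gave 0.07. The tight junction gene CLDN3 was higher (0.86), read on an _x_at set, and the catenin genes CTNNB1 and JUP stood at -0.01 and -0.04.

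All 7 genes of the matrix and secreted inhibitor list were above 0, with a median of 0.31 on both scales and 3 higher. These were MGP, CST3, which encodes cystatin C, at 82.9, 118.0, 112.9 and 134.8 (0.70, but -0.37 with the mean over its probe sets), and the growth factor binding protein gene IGFBP2 at 154.9, 220.5, 143.9 and 241.3 (0.64). CST3 had a mean signal of 110.46 and passed the minimum with a control signal below it. The other CST3 sets had mean signals of only 7.29 and 9.28. Of 29 hypoxia and glycolysis genes, 24 were above 0, 5 were higher and 1 lower, with a median of 0.22 (0.20 after quantile normalization). After EGLN3, BNIP3L, a mitophagy receptor gene, measured 490.7, 759.4, 527.8 and 845.1 (0.78). VEGFA, the angiogenic factor gene, measured 837.5, 1244.2, 805.5 and 1428.2 (0.77), and its other sets above a signal of 50 gave 0.61 and, on an _x_at set, 0.56. In both genes the p53 shRNA arrays were high and the other arrays near each other. MXI1, a MAX-binding repressor gene, was at 329.4, 453.9, 439.5 and 533.8 (0.70), and the aldolase gene ALDOC at 281.6, 395.7, 297.4 and 430.0 (0.61). P4HA2, a collagen prolyl hydroxylase gene, ran the other way at 529.9, 545.5, 319.0 and 256.6 (-1.05), with its other set at -1.06, and the glycolytic regulator gene PFKFB3 stood at -0.56. The 13 hypoxia response genes had medians of 0.33 and 0.31, and the 16 genes of glucose uptake and glycolysis 0.20 and 0.11, so that the latter moved with the scale. The glycolytic genes of high signal showed this shift, with LDHA at 0.22 as deposited and 0.04 after quantile normalization.

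Partners of Pontin held few differences past 1.5-fold. In the list of Pontin, Reptin and R2TP partners, 10 of 15 genes were below 0. The median was -0.22 (-0.19 after quantile normalization), and as deposited it lay below the lower quartile over all genes compared, -0.18. RUVBL1 was the only member past 1.5-fold. The next lowest were ZNHIT6 at -0.44 and ZNHIT3 at -0.41, both genes of box C/D snoRNP assembly, and the prefoldin subunit gene PFDN2 at -0.35, while POLR2E, an RNA polymerase subunit gene, was at 0.34. Of 29 genes of the INO80, SRCAP and TIP60 complexes, YEATS4 was lower and MBTD1, a TIP60 subunit gene that measured 382.2, 532.0, 591.0 and 626.1, was higher (0.71). The 15 TIP60 subunits had a median of -0.18, with EPC2 at -0.49, EP400 at -0.47 and the acetyltransferase gene KAT5 at 0.46. The 5 genes of PIKK kinases and their TTT complex lay between -0.27 for MTOR and 0.16 for PRKDC, and 0 were past 1.5-fold. Of 38 ribosome biogenesis genes, 25 were below 0, with a median of -0.10, and 2 were lower. These were the small subunit processome gene UTP15 at 195.2, 159.0, 181.9 and 113.5 (-0.78) and the large subunit factor gene WDR12 at 1034.5, 1008.8, 838.2 and 669.3 (-0.63). Of 7 replication-dependent histone genes, 4 of them on _x_at sets, 6 were below 0 with a median of -0.22, and H2AC6 was the only one past 1.5-fold. The linker histone gene H1-2 was at -0.52. Of 6 histone deacetylase genes HDAC8 alone was past 1.5-fold, and HDAC1, HDAC2 and HDAC3 stood at 0.02, -0.13 and 0.07.

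Cell cycle and genome maintenance genes held few large differences. Of 40 genes of G1/S and DNA replication, 20 were above and 20 below 0, and the cyclin gene CCNE2 was the only one past 1.5-fold, at 245.2, 227.9, 188.7 and 160.4 (-0.61). CDC25A, which encodes a phosphatase for S-phase entry, was at -0.56 and the thymidine kinase gene TK1 at 0.36. Of 36 mitotic genes, 24 were below 0, the median was -0.06, and TTK, which encodes a spindle checkpoint kinase, was lower at 622.0, 604.7, 469.6 and 395.9 (-0.65). The 9 genes of D cyclins, CDK inhibitors and the RB family had a median of 0.20, or -0.016 with the mean over each gene's probe sets, with 0 past 1.5-fold. Of 29 DNA repair and checkpoint genes 2 were lower and 1 higher. NBN, of the MRN complex, measured 3830.3, 3378.8, 2800.9 and 2300.5 (-0.74), LIG4, a DNA ligase gene of end joining, 440.8, 327.5, 291.4 and 278.1 (-0.66), and RAD54L, a recombination gene, 262.9, 225.8, 364.9 and 447.5 (0.77). Among 16 targets of wild-type p53, 0 were past 1.5-fold and the median was -0.06 (-0.02 after quantile normalization). MDM2, a p53 feedback gene, was at -0.08, PMAIP1, a BH3-only gene, at -0.43 and TP53INP1 at 0.31. Among 17 genes that earlier work linked to mutant p53, 0 were past 1.5-fold and the median was -0.09. Of 13 BCL2 family genes, BNIP3L was the only one past 1.5-fold, with the pro-apoptotic BAK1 at 0.54 and BCL2L11 at 0.52 and the anti-apoptotic MCL1 at -0.42.

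Metabolic and stress genes varied by member more than by list. Of 11 serine, glycine and one-carbon enzyme genes, 10 were below 0, with a median of -0.14. GLDC, of the glycine cleavage system, was lower at 1263.7, 767.7, 990.3 and 701.8 (-0.85), and PSPH, of serine synthesis, stood at -0.52. Of 22 cholesterol and fatty acid genes 0 were past 1.5-fold, with a median of -0.10, SREBF1 at -0.44 and MVK at 0.41. LYRM7 was the only one past 1.5-fold of 44 respiratory chain genes, and UBA6 the only one of 34 genes of ubiquitin activation and the proteasome. Among 31 genes of the unfolded protein and integrated stress response, VLDLR, a lipoprotein receptor gene, was at 238.1, 378.8, 301.6 and 450.0 (0.92), VEGFA was also listed, and the cystine transporter gene SLC7A11 was lower at 164.4, 115.0, 115.0 and 102.0 (-0.69). The NF-kB list had 8 genes above the minimum, all regulators, with a median of 0.33 on the deposited scale that turned to -0.25 without _x_at, _s_at and _a_at sets. NFKBIA, the NF-kB inhibitor and feedback gene, measured 1821.7, 1724.2, 2395.6 and 2958.0 (0.70), high on both Pontin siRNA arrays and highest on the combined one. RELA was at 0.54 and TNFAIP3 at 0.43, while NFKBIZ was at -0.47, and none of the 15 cytokine and adhesion genes on the array passed the minimum. Of 7 interferon response genes above the minimum, ISG15, a ubiquitin-like modifier gene, was lower at 184.2, 124.0, 161.4 and 106.8 (-0.79), and IFI6 at 219.7, 190.8, 233.1 and 134.3 (-0.71). TAP1, a peptide transporter gene of antigen presentation that was named for its size alone, was at 466.2, 490.6, 661.7 and 868.8 (0.90).

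In the remaining lists 3 further genes passed 1.5-fold. LGR4, a receptor of R-spondin signalling and 1 of 9 Wnt genes, was lower at 937.3, 1241.5, 489.6 and 534.1 (-0.81). LATS2, a Hippo pathway kinase gene and 1 of 23 YAP-TEAD genes, was higher at 329.6, 343.0, 476.8 and 497.3 (0.59). AGO4, an Argonaute gene and 1 of 11 genes of RNA interference, was higher at 156.8, 213.8, 219.8 and 279.8 (0.84, but -0.23 with the mean over its probe sets). The AGO4 sets of opposite sign had mean signals of only 4.80 and 8.66. Among 20 genes of TGF-beta receptors and SMADs, 25 of heat shock and 13 housekeeping genes, 0 passed 1.5-fold. The housekeeping median was 0.08 as deposited and -0.04 after quantile normalization, and the medians of the respiratory chain (0.07 and -0.02) and heat shock genes (0.003 and -0.04) likewise had opposite signs on the 2 scales.

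**Figure D5:**
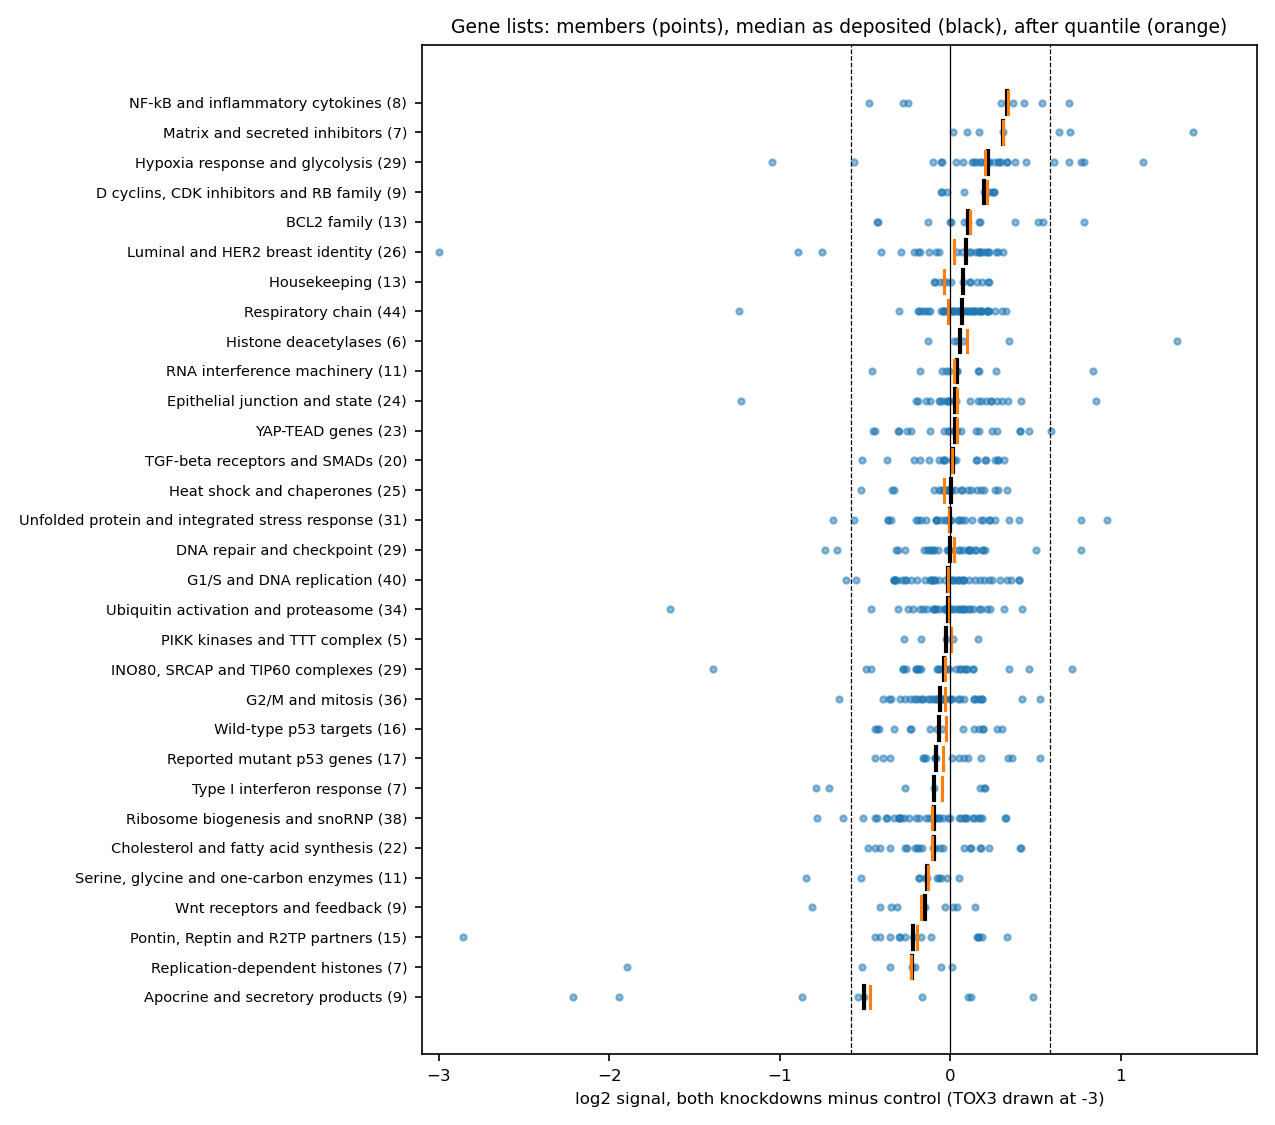
Difference between the combined and the control array (log2 signal) for the members of each gene list above the signal minimum; points are genes, black bars the median as deposited, orange bars the median after quantile normalization, the number of members is in brackets and dashed lines mark 1.5-fold. Medians run from -0.50 for the apocrine and secretory list to 0.33 for the NF-kB list, whose median was -0.25 without _x_at, _s_at and _a_at sets, and single genes such as RUVBL1, H2AC6, UBA6 and MGP lie far from their list's median. The lists were chosen with earlier results of these data known.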

How the data were processed

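RNA of 4 SK-BR-3 cultures, 1 array each, was compared as deposited. The deposited values are linear MAS5 signal intensities, a tool named without version in the submitters' processing notes, and each array had been scaled by the authors to a common trimmed mean. No detection calls were used. The number of arrays limits the precision. Gene names came from the platform annotation, updated by gene identifier: 41097 carried 1 symbol (41043 matched the RefSeq table), 1801 carried several and were left out with 62 control sets. Signals were taken to log2, with 14 zeros set to 0.1 and none among the genes compared. Each gene was read on the set with the highest mean log2 signal, at a minimum of 110. Quantile and cyclic loess normalization used limma 3.58.1 in R 4.3.3, and the rest Python 3.11.15. Counting was tested on simulated data. Groups came from the sample titles. No test was run, since each group had 1 array.

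Named genes were RUVBL1 and RUVBL2, the 15 highest and 15 lowest at least 2-fold apart on both scales, up to 6 members per list and direction at least 1.5-fold apart, and the largest members of a role as values. Other names, among them CEACAM6, DDIT4L, S100A7, DIO2, SPTLC1, BASP1, CDCP1, TAP1 and the higher genes outside the 15, were chosen after their values were seen. Members and all 31 gene lists were chosen with earlier results of these data known. The p53 shRNA's own target transcript is left out. Promoter windows for TOX3 and MGP were not used here. Alternatives were the normalization, a pseudocount, the minimum, the kind of mean, the probe set choice and the probe set types.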

Additional observations from a re-analysis of the deposited data

Results flagged for a closer look

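Signal outside the gene comparison differed on the combined array in 2 places. The 18 hybridization control probe sets, which read spiked-in transcripts, had a geometric mean ratio to the control array of 1.42 on the combined array, with all 18 above the control. On the p53 shRNA array the ratio was 1.04 with 14 above, and on the Pontin siRNA array 1.14 with 15 above. Among probe sets with a mean signal of 110 or more that carry no single gene symbol, 36 of 322 _x_at sets were at least 2-fold higher on the combined array and 4 lower, against 9 higher and 7 lower of 1156 sets of other types. The median difference of the 322 sets was 0.16 as deposited and 0.05 after quantile normalization. Against the control, it was 0.03 on the p53 shRNA array and 0.002 on the Pontin siRNA array.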

How the results depend on the processing

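Of 10 alternatives, 9 were planned and 1, leaving out _x_at sets alone and choosing each gene's set again, was added after seeing the data. Genes at least 2-fold higher as deposited numbered 36. There were 64 with a minimum of 50, 157 with the mean over a gene's probe sets, 8 without _x_at, _s_at and _a_at sets and 12 without _x_at sets alone. Genes at least 2-fold lower numbered 50, against 79 with a minimum of 50 and 85 with the mean over probe sets. Genes at least 1.5-fold higher numbered 168, against 301 with a minimum of 50, 94 with a minimum of 200, 497 with the mean over probe sets and 91 without the 3 types. The minimum of 50 admitted 9424 genes, the minimum of 200 kept 6179 and leaving out the 3 types 5323. The mean over probe sets also reads sets of very low signal. Among list medians of 0.1 or more in size as deposited, the sign turned for 2. These were D cyclins at -0.016 with the mean over probe sets and NF-kB at -0.25 without the 3 types. With the mean over probe sets TMED3 was at 0.27, CX3CR1 at 0.19, CST3 at -0.37 and AGO4 at -0.23. The sets of opposite sign were all dim. Their mean signals were 26.6 and 4.41 for TMED3, 7.27 for CX3CR1, 7.29 and 9.28 for CST3, and 4.80 and 8.66 for AGO4. Without _x_at sets, alone or with the other types, NLN was at -0.069, SLC35E1 at -0.038 and ZNF721 at -1.11. The cause of these reversals was not tested beyond the probe sets read. Of the other values, 523 of named genes kept their direction and moved little, while 29 moved. Of list medians, 291 moved by less than 0.1 and 17 moved further. Sign changes of medians smaller than 0.1 were not counted as reversals. They occurred, for example, in the housekeeping, respiratory chain and heat shock lists after quantile normalization. The RUVBL1 log2 ratio lay between -2.89 and -2.59 where it could be read. It fell under the minimum of 200, and its only set is of a type left out. No paired analysis was possible because each group had 1 array, and for the same reason no replicate could be left out. Signal near background limits what genes under the minimum can show.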
